A study of Mus musculus with 12 samples.

Results

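Prdm10 F/F;Rosa26-CreERT2 mouse embryonic stem cells, of C57BL/6 origin and grown in serum with LIF on gelatin, were exposed for 24 h to 50 nM 4-hydroxytamoxifen (OHT) and were harvested at Day 2 or Day 4. The comparison sets the 3 Day 4 libraries made after OHT against the 3 Day 2 libraries made after OHT, which are 6 of the 12 RNA-seq libraries of the series. It asks how the transcriptome of OHT-treated cells moved over the second pair of days. The other 6 libraries come from cells of the same line that received ethanol (EtOH), 3 at Day 2 and 3 at Day 4, and they serve as the measure of what the same days in culture did without OHT. The labels give the OHT libraries as Prdm10 del/del and the EtOH libraries as Prdm10 F/F. All 12 libraries come from the line with floxed Prdm10 alleles and the CreERT2 transgene, and no library without CreERT2 was analysed here, so an effect of Cre activity or of OHT itself cannot be told apart from an effect of the deletion. Nothing in the labels says that the 3 libraries of a group came from separate cultures or lines, so the p-values measure the spread between these libraries, which may be technical.

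PRDM10 is a zinc finger protein that binds DNA near gene starts. CreERT2 is a recombinase that enters the nucleus when it binds OHT, and here it cuts exon 5 out of Prdm10, which shifts the reading frame. A transcript that was already made, and its protein, must decay before a gene that needs the factor can fall, so levels measured at a later day can differ from those at an earlier one. In parallel, embryonic stem cells change with the days after plating, because oxygen, nutrients, growth factors and contact between cells change in the dish. Several transcript groups are known readers of such conditions, among them the targets of the hypoxia-inducible factors (HIF), the immediate early genes of growth factor signalling, the cholesterol synthesis genes driven by SREBP2 and the amino acid genes driven by ATF4.

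The 6 libraries held between 35017667 and 41290734 expected counts, with ranges that overlapped between the days. The first principal component of the 6 libraries held 69.2% of the variance and separated the 3 Day 2 from the 3 Day 4 libraries. Day 2 replicate 3 stood apart from the other Day 2 libraries on the second component (14.1% of the variance, -17.1 against 12.6 and 5.50), and it differed from them by a chi-square of 10.7 and 11.2 per gene, where the other Day 2 pair differed by 5.79. Without it 3291 genes were higher and 2435 lower at Day 4, and 86 and 143 were so by over 2-fold. Markers of embryonic stem cells were abundant, with a summed level of 2617 to 2785 TPM, the authors' measure per length and library, at Day 2 and 2762 to 2864 at Day 4 over 8 genes. The 10 fibroblast markers summed to 3.54 to 3.96 TPM at Day 2 and 2.09 to 2.85 at Day 4, and 8 of them, Lum, Dcn and Postn among them, stayed under 1 TPM in all 6 libraries. The RNA is bulk, so fewer cells of a type and less RNA per cell cannot be told apart in any value here. Prdm10 itself (ENSMUSG00000042496.18, chr9:31280538-31381723 in GRCm38) had normalised counts (library counts divided by size factors of all 12 libraries) of 2080.2, 2225 and 2213 at Day 2 and 1982, 2089.6 and 1965 at Day 4. The 2 groups overlapped, and the log2 fold change was -0.11 ± 0.05 (SE), adjusted p = 0.106 in DESeq2. The gene-level count does not check the deletion, since only exon 5 is removed and the rest of the transcript is still counted: Prdm10 averaged 801 ± 29.4 at Day 2 and 869 ± 45.8 at Day 4 in EtOH, lower than in either OHT group.

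The transcriptome of OHT-treated cells changed broadly but mostly by small amounts between the days. Of 11633 genes with a mean normalised count above 100, 3568 (30.7%) were higher and 2670 (23.0%) were lower at Day 4 than at Day 2 (DESeq2 Wald test, Benjamini-Hochberg adjusted p below 0.05). Changes past 2-fold were fewer, 84 genes higher (0.722%) and 174 lower (1.50%), and 17 genes were lower by over 4-fold against 1 gene, Tchh, that was higher by as much. The median log2 fold change over all tested genes was 0.04, with quartiles of -0.16 and 0.21. Normalised counts of the 2 days did not overlap in 70.1% of tested genes, so a lack of overlap by itself says little about any single gene.

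Much of this movement was also present in the vehicle libraries. Between Day 2 and Day 4 in EtOH, 2380 of 11570 tested genes (20.6%) were higher and 2371 (20.5%) lower. Of the 6238 genes that changed after OHT, 2796 were also called in EtOH with the same direction, 365 were called in the opposite direction and 3077 were not called. Across the 11441 genes tested in both, the 2 sets of log2 fold changes, which share no library, had a Pearson r of 0.63. To compare the treatments directly, the difference between the 2 day changes was tested as an interaction term in a fit of the 12 libraries together. The day change was more positive after OHT for 2175 of 11612 genes (18.7%) and more negative for 1577 (13.6%). Among the 6238 genes changed after OHT, the interaction was called for 2727. It had the sign of the OHT change in 2494, which moved further in that direction after OHT than in EtOH, and the opposite sign in 233, which moved further that way in EtOH. Both tests use the same OHT libraries, so the lean towards the sign of the OHT change follows in part from picking genes called after OHT. Of the 258 genes past 2-fold after OHT, 159 were called the same way in EtOH, and 165 had a called interaction.

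**Figure D1:**
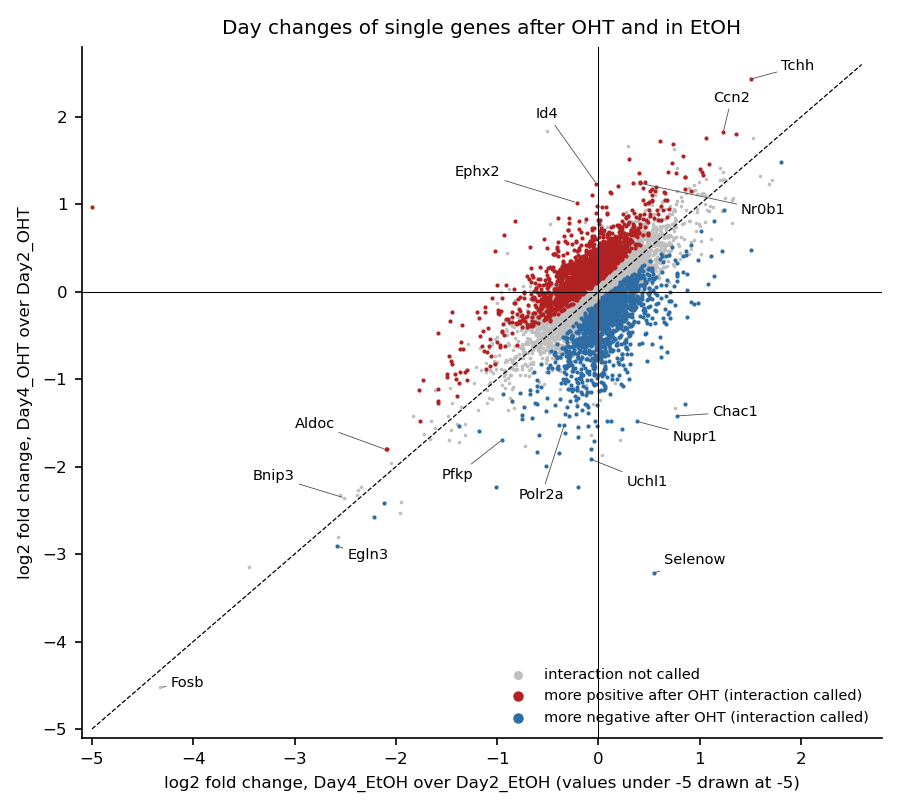
Log2 fold change from Day 2 to Day 4 after OHT (vertical axis) against that in EtOH (horizontal axis) for each gene tested after OHT, coloured by the test of the difference. Fosb, Egln3 and Bnip3 lie low and near the dashed line of equal change, while Selenow, Uchl1, Chac1 and Nupr1 lie well below it. Exosc6, drawn at the left edge, has an uncertain read assignment.

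The genes that the study singled out as PRDM10 targets were mostly lower still at Day 4 than at Day 2 after OHT. Selenow, which encodes the small redox protein selenoprotein W, had normalised counts of 228, 254 and 246 at Day 2 and 29.6, 24.7 and 24.2 at Day 4. All 3 Day 4 libraries lay far below the Day 2 libraries, a 9.28-fold lower level (log2 fold change -3.21 ± 0.22 (SE), adjusted p = 4.39e-46). In EtOH it rose, with means of 594 ± 73.3 at Day 2 and 869 ± 78.6 at Day 4 (± SD, n = 3). Eef1d, the guanine exchange subunit of elongation factor eEF1, had counts of 6390.1, 6521 and 6788 at Day 2 and 4139.9, 4266 and 4122 at Day 4. Its groups did not overlap (log2 fold change -0.65 ± 0.04 (SE), adjusted p = 2.59e-54), whereas the EtOH log2 fold change, 0.0038, was not called. Eif3b, a core scaffold subunit of initiation factor eIF3, had counts of 8592, 8921 and 10269 at Day 2 and 7831, 7511 and 7717 at Day 4, with no overlap between days (log2 fold change -0.27 ± 0.05 (SE), adjusted p = 5.06e-06). In EtOH it rose, with means of 13013 ± 466 at Day 2 and 15498 ± 667 at Day 4. Rpl19, a protein of the large ribosomal subunit, fell by 0.26 on the log2 scale after OHT (SE 0.03, adjusted p = 2.27e-15), and Ube2a, a ubiquitin-conjugating enzyme related to yeast RAD6, had -0.30 (SE 0.07, adjusted p = 3.26e-04). Ss18, a subunit of the BAF chromatin remodelling complex, was the exception, at 0.07 ± 0.05 (SE), adjusted p = 0.372, with counts of 2012, 2044 and 1906 at Day 2 and 2045, 2075 and 2108 at Day 4 against 4661 ± 149.5 at Day 2 and 4847 ± 147 at Day 4 in EtOH. For the 5 of these 6 genes that fell, the interaction was called and negative, and for Ss18 it was not called. The study picked these genes partly on these libraries, so their direction is not independent evidence.

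**Figure D2:**
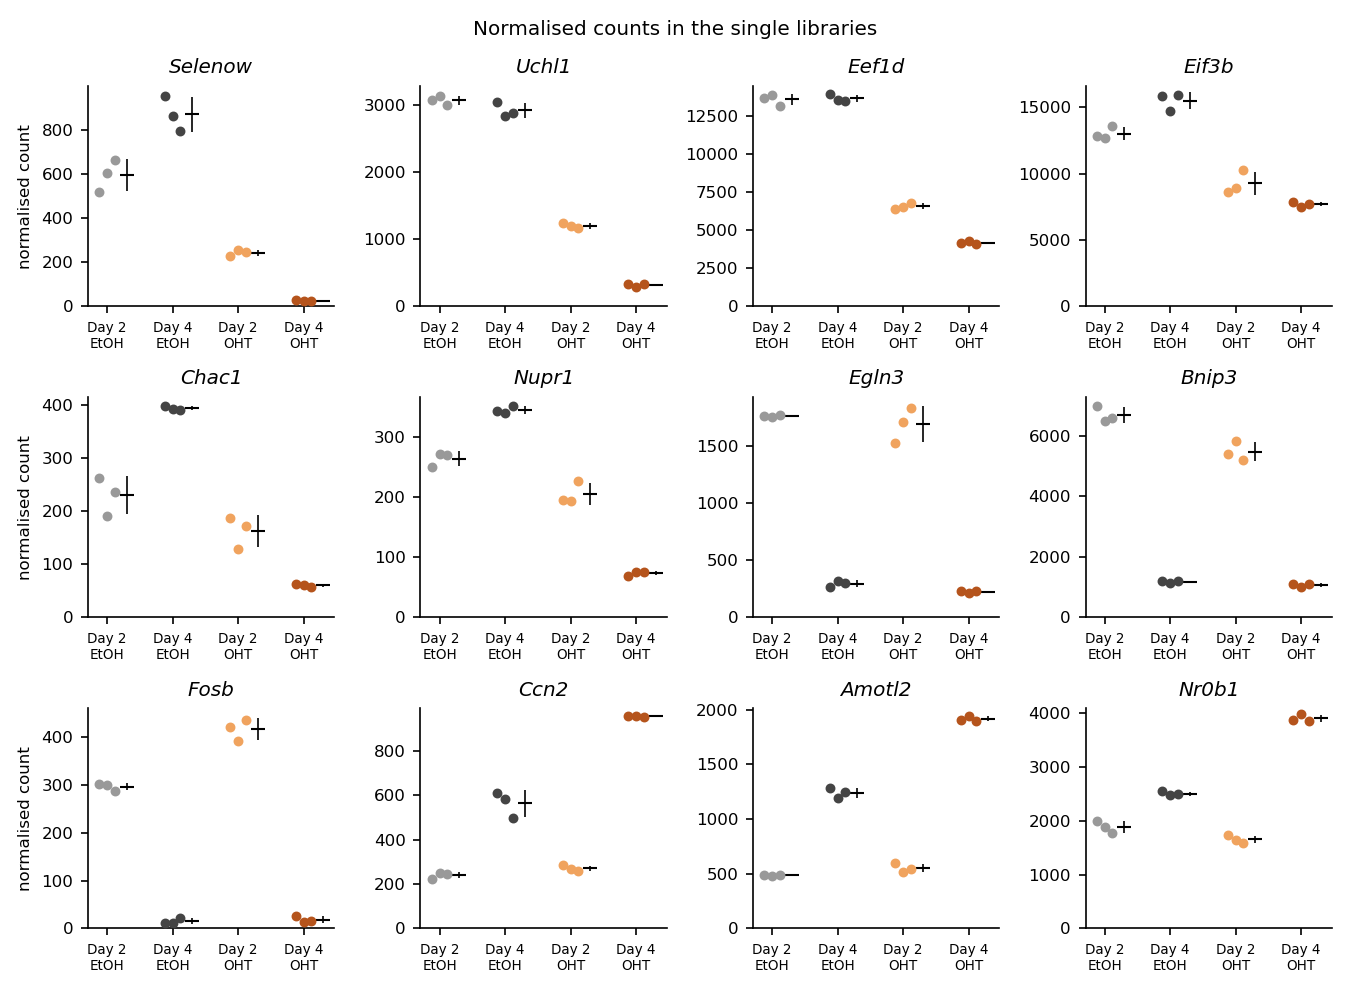
Normalised counts (vertical axis, from 0) of 12 named genes in each of the 12 libraries, grouped by day and treatment; the horizontal tick beside the points is the group mean and the vertical bar its SD (n = 3). Selenow, Uchl1, Eef1d, Chac1 and Nupr1 are lowest in the 3 Day 4 OHT libraries, while Egln3, Bnip3 and Fosb fall from Day 2 to Day 4 under both treatments.

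The study's list of genes with PRDM10 bound nearby gives the wider group. The sequence that PRDM10 binds is represented by the pair of 28-base probes that the study used in gel shift assays, shown here with the 8 bases that differ between them in capitals.
wild-type probe: ctggcacagTGGTcgcGCCCggcccgcc
mutant probe: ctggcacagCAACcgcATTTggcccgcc
The letters TGGTNNNGCCC, taken from the wild-type probe with the shared bases as N, were searched on both strands of RefSeq promoter windows of 300 bases around annotated starts (GRCm38.p6). They occurred in at least 1 window of 57 of the 439 bound genes with a window (13.0%) and of 458 of all 27025 genes (1.69%). Among bound genes that were lower at Day 4 after OHT the count was 14 of 90 (15.6%), and among those that were higher 7 of 86 (8.14%). These exact letters are not the consensus motif that the study found in its ChIP-seq peaks, so a gene without them may still hold that consensus. The study reports a match to its consensus in each PRDM10-bound region of the Eif3b promoter. The match in the Ube2a promoter, shown because Ube2a is the singled-out gene with a match to the exact letters, and that of Wasl, a bound gene that was lower, read as follows with the matched letters in capitals.
Ube2a (chrX:36874305-36874334, plus strand): tccccaggtTGGTTCGGCCCccgtctactc
Wasl (chr6:24664979-24665008, minus strand): cgcgtcccgTGGTCTCGCCCgcccccgctg
A match of letters is a description of the window and not of binding.

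Of 627 bound genes in the files, 407 passed the minimum mean in the OHT libraries, and they moved in both directions. 125 were lower (30.7% of those tested, against 23.0% of all genes) and 103 higher (25.3% against 30.7%). Their median log2 fold change was -0.02, against 0.04 for all genes. The interaction was more negative for 124 and more positive for 53 of the 427 bound genes tested over 12 libraries, where over all genes the shares were 13.6% and 18.7%. Of the 125 that were lower after OHT, 87 had a called negative interaction and 29 were also lower in EtOH. The 103 bound genes that were higher split differently, with 52 also higher in EtOH and 31 with a called positive interaction. The interaction uses the same OHT libraries, so its sign within each of these groups follows in part from how they were picked. A further 220 bound genes were below the minimum mean. These included 27 whose EtOH libraries averaged above 100, so the tested members leave out bound genes that are low after OHT. That these 27 were lower after OHT than in EtOH follows from how they were picked.

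Among the 407 tested bound genes, 14 were lower and 3 higher by over 2-fold. Over all 11633 tested genes the counts were 174 (1.50%) and 84 (0.722%). The 14 included Fos and Slc16a3, described below, which also fell in EtOH (-1.95 and -2.09). Fos had no called interaction, and that of Slc16a3 was positive. Uchl1, a ubiquitin hydrolase abundant in neurons (ENSMUSG00000029223.12, chr5:66676091-66687234), had counts of 1237, 1196 and 1160.0 at Day 2 and 326, 293 and 332 at Day 4, with each Day 4 library below each Day 2 library. This was a 3.77-fold fall (log2 fold change -1.92 ± 0.08 (SE), adjusted p = 2.50e-111), against -0.07 in EtOH, where the level was 3071 ± 69.2 at Day 2 and 2924 ± 111 at Day 4. Flcn, which encodes folliculin, a regulator of amino acid signalling at the lysosome, had counts of 349, 395 and 335 at Day 2 and 205, 198 and 214 at Day 4 and a log2 fold change of -0.81 ± 0.12 (SE), adjusted p = 1.16e-09, at a level well below the EtOH mean on both days (1719.7 ± 70.8 at Day 2 and 1775 ± 41.2 at Day 4). The groups did not overlap for either gene. Some bound genes that fell were not below EtOH at the start. Polr2a, the largest subunit of RNA polymerase II, averaged 3588 ± 616 at Day 2 and 2847 ± 544 at Day 4 in EtOH, and after OHT it had 5302, 5407 and 6984 at Day 2 and 2063, 1923 and 2173 at Day 4. The Day 2 OHT libraries were thus above, and the Day 4 OHT libraries below, the EtOH mean of their day. Day 2 replicate 3, the library that stands apart, was the highest, and without it the log2 fold change was -1.38 (SE 0.05, adjusted p = 4.64e-152) against -1.52 with it. Polr2a is named here, like Wasl, after its values were seen.

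Of the bound genes too low to be tested after OHT, the 4 with the highest EtOH level, chosen for that level, were Hap1, Adgrv1, Nmral1 and Galnt10. Hap1, which encodes huntingtin-associated protein 1, had 145, 139.9 and 122 at Day 2 and 48.4, 52.4 and 49.3 at Day 4, against an EtOH mean of 1481 ± 33.8 at Day 2 and 1870.5 ± 66.7 at Day 4. Adgrv1, an adhesion G protein-coupled receptor, had 103, 91.0 and 106 at Day 2 and 28.6, 26.7 and 27.9 at Day 4, against 945 ± 74.8 at Day 2 and 992 ± 63.7 at Day 4 in EtOH. Nmral1 had 37.9, 33.8 and 42.5 at Day 2 and 2.96, 2.97 and 7.44 at Day 4 and Galnt10, an enzyme that starts O-linked glycans, had 74.8, 79.8 and 99.1 at Day 2 and 14.8, 17.8 and 14.9 at Day 4. In all 4, each Day 4 library lay below each Day 2 library, where 70.1% of all tested genes had no overlap between days. Not all 27 such genes fell. The days overlapped for Ablim1, Tmem198b and Tpbg, with log2 fold changes of 0.0059, 0.0002 and -0.02, and Ppfia3 had 0.32. The bound gene with the largest rise was Smyd1, a muscle methyltransferase, with 95.8, 96.7 and 79.5 at Day 2 and 234, 192 and 223 at Day 4 and a log2 fold change of 1.25 ± 0.17 (SE), adjusted p = 4.47e-12, and it rose in EtOH too (0.99).

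**Figure D3:**
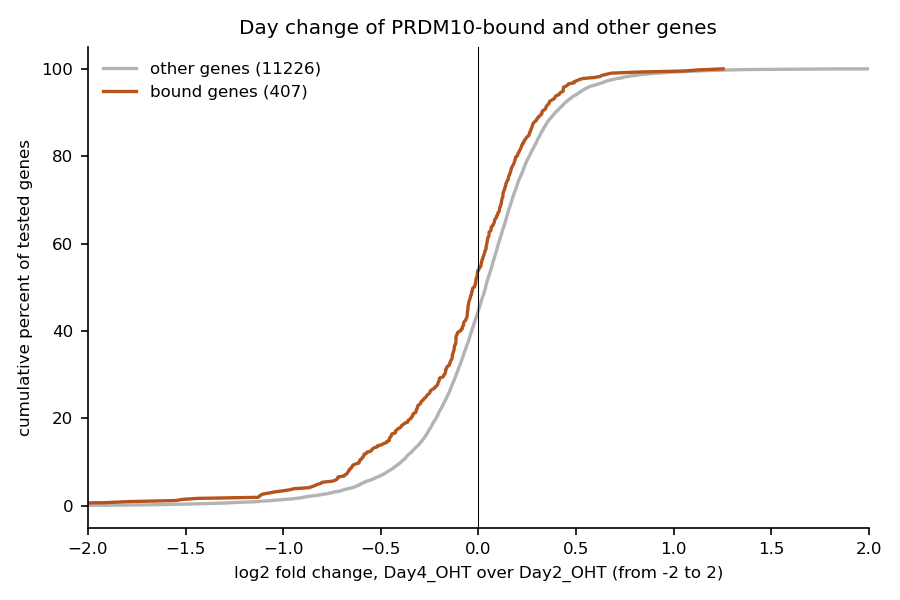
Cumulative percent of tested genes (vertical axis) by log2 fold change from Day 2 to Day 4 after OHT (horizontal axis, drawn from -2 to 2) for the 407 tested PRDM10-bound genes and all other tested genes. The bound genes lie to the left over most of the range, with a median of -0.02 against 0.04 for all genes.

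Genes of the hypoxia response fell steeply after OHT, and in EtOH as well. HIF factors are stabilised when oxygen is low and bind the core letters ACGTG at their targets. Of 18 tested hypoxia genes, 15 were lower (83.3%, against 23.0% of all genes) and 1, Hif1a itself, was higher. The median log2 fold change was -0.98. In EtOH the same list had 15 lower and a median of -1.40. Egln3, a prolyl hydroxylase that marks HIF for decay (ENSMUSG00000035105.5, chr12:54178981-54203860), had counts of 1528, 1715 and 1842 at Day 2 and 232, 216 and 227 at Day 4. All Day 2 libraries lay above all Day 4 libraries, by 7.51-fold (log2 fold change -2.91 ± 0.09 (SE), adjusted p = 3.94e-217). Its EtOH means were 1770.2 ± 8.73 at Day 2 and 296 ± 27.1 at Day 4. Ddit4, an inhibitor of mTORC1 also known as REDD1, had 2749, 3122 and 3073 at Day 2 and 500.5, 471 and 524 at Day 4 (log2 fold change -2.58 ± 0.07 (SE), adjusted p = 1.56e-293). Bnip3, a receptor for mitophagy, had 5396, 5823 and 5205 at Day 2 and 1099.6, 993 and 1109 at Day 4 (log2 fold change -2.36 ± 0.06, SE), close to the -2.51 measured in EtOH. Bhlhe40, Ndrg1 and Ndufa4l2, whose transcripts are known to be induced by hypoxia, had log2 fold changes of -2.32, -2.32 and -3.15. For these 3 and Bnip3 the interaction was not called. Ankrd37, a small ankyrin repeat protein, had -2.23 on the log2 scale.

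Glycolysis genes fell with them, less steeply than in EtOH. Of 20 glycolysis and lactate transport genes, 19 were lower after OHT and 1, Pfkm, was not called. Their median log2 fold change was -0.62 after OHT and -1.01 in EtOH, and the interaction was positive for 17 and negative for 1. Aldoc, aldolase C, had counts of 1447, 1604 and 1588 at Day 2 and 424, 436 and 466 at Day 4 (log2 fold change -1.80 ± 0.08 (SE), adjusted p = 8.01e-119; EtOH -2.10). Slc16a3, the lactate exporter MCT4, had 7029, 7747 and 7982 at Day 2 and 2289, 2030.3 and 2232 at Day 4 (log2 fold change -1.79 ± 0.06 (SE), adjusted p = 4.39e-229; EtOH -2.09). Neither gene's day groups overlapped. Pfkp, a phosphofructokinase, was the member with a negative interaction: it fell by 1.69 on the log2 scale after OHT (19042, 21423 and 22052 at Day 2 and 6387, 6290.5 and 6608 at Day 4) and had -0.95 in EtOH. Pgk1, phosphoglycerate kinase, and Ldha, lactate dehydrogenase, had -0.94 and -0.83.

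Promoters of the hypoxia and glycolysis genes that fell are shown because so many of them hold the HIF core letters. ACGTG or its reverse complement CACGT occurred in a window of 10 of the 11 hypoxia genes called lower that have a window, and in 13 of 18 glycolysis genes called lower. The letters were chosen after the falls were seen. The share over all 27025 genes with a window was 21.8%, and over tested genes 30.4%. Stretches of 30 bases with the match in capitals follow, 5′ to 3′ on the gene's strand (GRCm38.p6, RefSeq windows), for the hypoxia genes with the largest falls and then for glycolysis genes.
Egln3 (chr12:54204086-54204115, minus strand): tgtgcatctcagACGTGagatccaggtttt
Ddit4 (chr10:59951940-59951969, minus strand): agaacgttgcgaACGTGcgcccggtgccta
Bnip3 (chr7:138909597-138909626, minus strand): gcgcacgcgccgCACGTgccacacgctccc
Ankrd37 (chr8:45999839-45999868, minus strand): cagtgtttgggtACGTGaggccgcagcggg
Aldoc (chr11:78323088-78323117, plus strand): cccccagggagtCACGTagctctgcggcaa
Slc16a3 (chr11:120949041-120949070, plus strand): cgtgcgcgggggACGTGccgcgcgacggat
Pgk1 (chrX:106186938-106186967, plus strand): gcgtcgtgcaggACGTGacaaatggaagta
Ldha (chr7:46845744-46845773, plus strand): cggcccagcctaCACGTgggttcccgcacg
The letters are short and common, and both lists hold genes known as HIF targets, so the matches describe these windows only.

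Immediate early genes, which growth factor signalling through ERK switches on within minutes, included Fosb, which had the lowest log2 fold change among called genes without overlap and with an RSEM posterior SD of at most 10% of the mean count. Fosb, a subunit of the AP-1 transcription factor (ENSMUSG00000003545.3, chr7:19302696-19310051), had counts of 422, 392 and 437 at Day 2 and 25.7, 12.8 and 15.8 at Day 4. This 23.0-fold fall (log2 fold change -4.53 ± 0.23 (SE), adjusted p = 1.32e-83) stood beside one of -4.33 on the log2 scale in EtOH. Fos had 155, 189 and 162 at Day 2 and 25.7, 27.7 and 41.8 at Day 4, and Ier3 had 1571, 1755 and 1666 at Day 2 and 313, 328 and 291 at Day 4, with log2 fold changes of -2.40 and -2.42 (SE 0.24 and 0.08). Both fell in EtOH too (-1.95 and -2.11). The full list of FGF-ERK and immediate early genes was mixed, with 10 higher and 6 lower of 20 tested and a median of 0.14 (EtOH 0.12). Anxa2, a calcium-dependent membrane binding protein, fell 6.98-fold and Aoc3, an amine oxidase, 5.77-fold. Neither had a called interaction.

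The 12 largest rises among genes that met the naming rule included Ccn2 and Amotl2. Ccn2, the matrix protein also called CTGF, had counts of 283, 268 and 259 at Day 2 and 956, 957 and 955 at Day 4, a 3.54-fold rise (log2 fold change 1.82 ± 0.09 (SE), adjusted p = 2.10e-89). Amotl2, an angiomotin that binds the Hippo pathway effector YAP, had 596, 516 and 545 at Day 2 and 1909, 1943 and 1899.9 at Day 4 (3.48-fold, log2 fold change 1.80 ± 0.07 (SE), adjusted p = 3.76e-146). Both are known targets of YAP and its DNA-binding partner TEAD. They rose in EtOH as well, with log2 fold changes of 1.23 and 1.35, and both interactions were positive. The TEAD core letters CATTCC (both strands) occurred in a window of 18 of 59 genes over 2-fold higher that have a window (30.5%) and in 16.6% of all genes and 14.1% of tested genes with one. That search was chosen after the values were seen. The window of Amotl2 is shown as the example among the genes with the largest rises.
Amotl2 (chr9:102717727-102717756, plus strand): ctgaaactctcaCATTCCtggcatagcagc
Tchh, which encodes trichohyalin, a structural protein of hair follicles, rose with 41.9, 62.9 and 50.1 at Day 2 and 259, 286 and 293 at Day 4 (log2 fold change 2.43 ± 0.18 (SE), adjusted p = 1.02e-37). Foxd3, a transcription factor of stem and neural crest cells, rose 3.38-fold (log2 fold change 1.76; EtOH 1.53). Wls, the sorting receptor for secreted WNT proteins, rose 3.23-fold with 191, 180.2 and 160.1 at Day 2 and 585, 565 and 565 at Day 4, and Sntb1, a syntrophin of the dystrophin complex, 3.39-fold. Sox21, Gm13140, 2310043M15Rik, 2210409E12Rik, Platr15 and Gm48377 complete the 12 largest rises with log2 fold changes of 1.64, 1.56, 1.52, 1.48, 1.48 and 1.73. The last 5 are annotated as a pseudogene, an antisense RNA, a transcribed pseudogene, a long intergenic RNA and an unverified transcript, and reads of pseudogenes can come from related copies.

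Cholesterol synthesis genes fell under both treatments. 18 of 24 tested genes were lower after OHT, with a median of -0.38, and 19 of 25 were lower in EtOH, with a median of -0.37. Dhcr7, the enzyme of the last step, fell 2.19-fold (945, 1018 and 1116 at Day 2 and 427, 478 and 494 at Day 4; log2 fold change -1.13 ± 0.09 (SE), adjusted p = 9.90e-36), further than in EtOH (-0.61). Stard4, a carrier of sterols between membranes, had a log2 fold change of -0.83, and Fdps, farnesyl diphosphate synthase, had -0.60. Lefty1, a secreted antagonist of NODAL, fell 2.25-fold (5090.1, 4916 and 4993 at Day 2 and 2249.6, 2198 and 2208 at Day 4), while Id3, a target of BMP signalling, rose 2.05-fold. Over the 13 tested WNT, NODAL and BMP genes, 6 were higher and 3 lower (46.2% and 23.1%, against 30.7% and 23.0% of all genes).

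Ribosomal protein genes moved in opposite directions under the 2 treatments. After OHT, 64 of 79 were higher at Day 4 (81.0%, against 30.7% of all genes) and 2, Rpl19 and Rpl27, were lower. In EtOH, 63 of the 79 were lower. The changes were small, with medians of 0.15 after OHT and -0.14 in EtOH, and the interaction was positive for 75 genes and negative for 1, Rpl19. Rplp2, a stalk protein of the large subunit, had counts of 20514, 18757 and 20244 at Day 2 and 26269, 26490.4 and 25334 at Day 4, with no overlap (log2 fold change 0.39 ± 0.04 (SE), adjusted p = 1.23e-22; EtOH -0.09). Rps12 and Rps23 of the small subunit had log2 fold changes of 0.34 and 0.32. Ribosomal protein transcripts are short, and with each library's trend on gene length removed the OHT median was 0.07, with 37 higher and 4 lower, and the interaction was still positive for 66. Ribosomal protein genes also have many processed pseudogenes that can share reads with them. Of 220 tested processed pseudogenes of any parent gene, 72 were higher after OHT (32.7%, against 30.7% of all genes). A further 22 were lower, where 23.0% of all genes were lower. These counts are not limited to copies of ribosomal protein genes, so they do not show whether such reads were shared.

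Other genes of the translation machinery moved in both directions. Of 14 eIF3 subunit genes 10 were higher after OHT (71.4%, against 30.7% of all genes) and only Eif3b was lower, with a median of 0.17 (EtOH 0.13). Eif3f rose 0.47 on the log2 scale, Eif3l 0.30 and Eif3g 0.28. Among 32 other translation factors 14 were higher and 6 lower after OHT (43.8% and 18.8%, against 30.7% and 23.0% of all genes). In EtOH 11 were higher and 6 lower. Those lower after OHT included Eef1d, Eif1, which guards start codon choice (log2 fold change -0.58 ± 0.05 (SE), adjusted p = 4.67e-27), and Pabpc1, the poly(A)-binding protein (-0.40 ± 0.05 (SE), adjusted p = 6.52e-14). Ribosome biogenesis genes were higher in 20 and lower in 4 of 38 cases (52.6% and 10.5%), and in EtOH in 16 and 2. Tsr1, needed to mature the small subunit, had a log2 fold change of 0.45, and Nob1, which trims its RNA, 0.39. Polr1a, the largest subunit of RNA polymerase I and a bound gene, went down (-0.33 ± 0.04 (SE), adjusted p = 1.03e-12) while it rose in EtOH (0.25). Proteasome subunit genes had 12 higher and 4 lower of 31 after OHT (38.7% and 12.9%), and 8 higher and 1 lower in EtOH. No member named by the rule moved by more than 0.21 on the log2 scale after OHT (Psmb5 0.21, Psma7 -0.21, Psmb6 0.20). The sign of the proteasome median after OHT, 0.04, turned negative with the length trend removed.

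**Figure D4:**
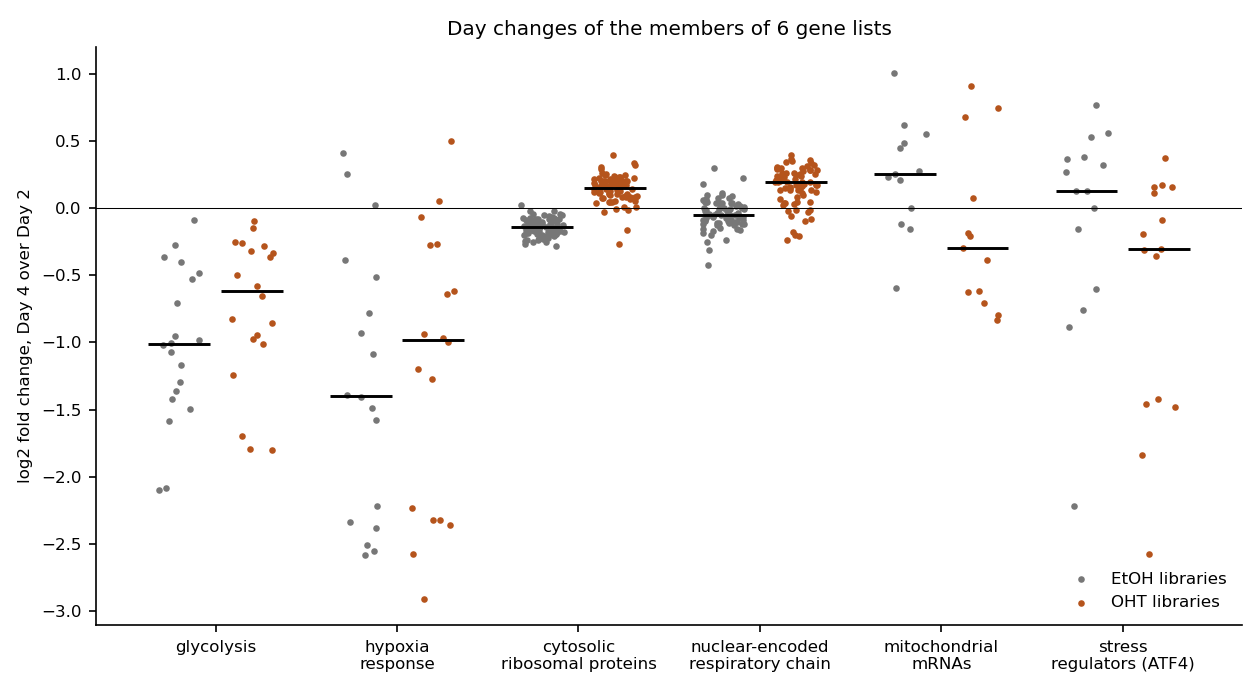
Log2 fold change from Day 2 to Day 4 (vertical axis) of each tested member of 6 gene lists, in EtOH (grey) and after OHT (orange); the black bar is the median. Glycolysis and hypoxia genes fell under both treatments, ribosomal protein and nuclear-encoded respiratory chain genes have medians above 0 after OHT and below 0 in EtOH, and mitochondrial mRNAs and ATF4-linked stress regulators have lower medians after OHT than in EtOH.

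Nuclear genes and mitochondrial genes of the respiratory chain parted ways. The chain is built from subunits made in both compartments. Of 76 nuclear-encoded subunit genes 54 were higher (71.1%, against 30.7% of all genes) and 5 lower after OHT, with a median of 0.19. In EtOH 4 were higher and 16 lower (median -0.05), and 47 interactions were positive against 2 negative. Cox8a, a subunit of cytochrome c oxidase, had 4489.6, 4399 and 4267 at Day 2 and 5845, 5688 and 5743 at Day 4 (log2 fold change 0.40 ± 0.04 (SE), adjusted p = 2.51e-21), Ndufa1 of complex I had 0.36 and Cox5b had 0.36. With the length trend removed, 37 were higher and 6 lower, with a median of 0.11. The mRNAs of the mitochondrial genome made up 1.00% to 1.06% of expected counts at Day 2 and 0.771% to 0.827% at Day 4 after OHT, ranges that do not overlap. In EtOH the shares were 1.21% to 1.30% at Day 2 and 1.30% to 1.36% at Day 4.

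Of the 13 mitochondrial mRNAs 8 were lower and 3 higher after OHT (61.5% and 23.1%, against 23.0% and 30.7% of all genes). The median was -0.30 after OHT and 0.25 in EtOH, and 9 interactions were negative against 1 positive. mt-Nd2, a subunit of complex I, had 7309, 7101 and 7628 at Day 2 and 4032, 4097 and 4198 at Day 4, with groups far apart (log2 fold change -0.83 ± 0.04 (SE), adjusted p = 5.92e-87; EtOH -0.15). mt-Atp6 of the ATP synthase (-0.79) and mt-Co3 of cytochrome c oxidase (0.91) moved in opposite directions, but their reads could not be placed with certainty: the largest RSEM posterior SD was 16.7% and 15.9% of the mean count, and it was 182% for mt-Co2 and 39.5% for mt-Nd4l. The call of mt-Co3 was lost without Day 4 OHT replicate 2 (adjusted p = 0.11) or Day 2 OHT replicate 3 (adjusted p = 0.056). Genes of mitochondrial transcription and RNA handling were higher in 11 and lower in 1 of 30 (36.7% and 3.33%, against 30.7% and 23.0% of all genes), with medians after OHT and in EtOH close to each other (0.09 and 0.06). Trmt10c, a subunit of mitochondrial RNase P, had 0.40, and the transcription terminators Mterf1b and Mterf1a, near copies of each other, 0.66 and 0.46. Mitochondrial ribosomal protein genes had 28 higher and 5 lower of 77 (36.4% and 6.49%), led by Mrps34 (0.60), Mrps15 (0.49) and Mrpl43 (0.35). In EtOH 23 were higher and 2 lower, and the medians were 0.07 after OHT and 0.06 in EtOH. With the length trend removed the split after OHT was 17 against 12.

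Genes linked to ATF4, the transcription factor of the amino acid and integrated stress response, moved down after OHT relative to EtOH. Of 15 tested stress regulators 8 were lower and 4 higher (53.3% and 26.7%, against 23.0% and 30.7% of all genes). For 10 the interaction was negative, against 2 positive. The median log2 fold change was -0.31, and -0.20 without Day 4 OHT replicate 1. Chac1, an enzyme that degrades glutathione, had counts of 187, 129 and 171 at Day 2 and 63.2, 60.3 and 57.7 at Day 4 (log2 fold change -1.42 ± 0.21 (SE), adjusted p = 1.29e-10), and in EtOH it rose, with means of 229.8 ± 36.1 at Day 2 and 393 ± 3.78 at Day 4. Nupr1, a small stress-induced nuclear protein, had 196, 193 and 227 at Day 2 and 69.1, 75.1 and 75.3 at Day 4 (log2 fold change -1.48 ± 0.18 (SE), adjusted p = 1.96e-15), against 264 ± 12.3 at Day 2 and 345 ± 6.77 at Day 4 in EtOH. The days did not overlap for either gene, and both rose in EtOH. Vldlr, a lipoprotein receptor, had 168, 155 and 189.5 at Day 2 and 52.3, 36.6 and 53.9 at Day 4 (-1.84; EtOH -0.60). Ddit4, described above, stands in this list as well as among the hypoxia genes. Atf4 itself was slightly higher after OHT (0.11, SE 0.05) and more so in EtOH (0.53).

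Amino acid enzymes and transporters shared that direction. The interaction was negative for 9 of 14 synthesis genes and 8 of 12 transporter genes, against 13.6% of all genes. Of 13 tested amino acid synthesis genes 8 were lower and 2 higher after OHT (61.5% and 15.4%, against 23.0% and 30.7% of all genes). Their median was -0.34, against 0.01 in EtOH. Psat1 of serine synthesis had 12974, 12898 and 13539 at Day 2 and 8931, 8974 and 8568 at Day 4 (log2 fold change -0.57 ± 0.04 (SE), adjusted p = 2.77e-52; EtOH 0.01), and Pycr1 of proline synthesis had -0.87. Cth, which makes cysteine from cystathionine, rose under both treatments (0.79 and 0.84). Amino acid transporter genes rose in EtOH, 10 of 13, but after OHT only 2 of 12 did and 3 were lower. The lower ones were Slc38a2 (-0.36), Slc1a4 (-0.30; EtOH 0.71) and Slc1a5 (-0.23), carriers of small neutral amino acids. Aminoacyl-tRNA synthetase genes were mixed, 8 higher and 3 lower of 20 (40.0% and 15.0%), with Vars at 0.46, Iars at -0.36 and Sars at -0.22. Endoplasmic reticulum chaperone and unfolded protein response genes were lower in 10 and higher in 2 of 19 (52.6% and 10.5%, against 23.0% and 30.7% of all genes). In EtOH 8 were lower and 2 higher, and for 15 of the 19 the interaction was not called. Herpud1, which helps degrade misfolded proteins, had -0.60 against 0.40 in EtOH, while the chaperone Hyou1 had -0.28 under OHT and -0.28 in EtOH. Syvn1, a ubiquitin ligase of the same pathway and a bound gene, had -0.38 ± 0.15 (SE), adjusted p = 0.0284, a call that was lost without each of 5 of the 6 libraries.

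Lysosomal genes split after OHT, where in EtOH they had mostly gone down. Of 39 tested genes of the lysosome and its TFE regulators 16 were higher and 12 lower after OHT, and 20 were lower in EtOH. The OHT shares were 41.0% and 30.8%, against 30.7% and 23.0% of all genes. 20 interactions were positive and 2, Flcn and Mitf, negative. Hexa, a subunit of beta-hexosaminidase, had 1202, 1221 and 1224 at Day 2 and 1791, 1749.5 and 1639.5 at Day 4 (log2 fold change 0.51 ± 0.06 (SE), adjusted p = 9.00e-16), and in EtOH it fell, with means of 919 ± 79.1 at Day 2 and 693 ± 8.46 at Day 4. Mitf, a TFE family factor, had -0.47. The letters TCACGTG, which contain the ACGTG searched above, occurred in a window of 5 of the 12 lysosomal genes called higher and 1 of the 10 called lower. Over the whole lysosome list it was 13 of 35 (37.1%), against 7.55% of tested genes and 4.29% of all genes with a window. TFE factors are known to bind such letters, which were chosen after the values were seen. Genes of the oxidative stress factor NRF2 were lower in 7 and higher in 1 of 11 (63.6% and 9.09%, against 23.0% and 30.7% of all genes). In EtOH 6 were lower and 1 higher, and 3 interactions were positive against 3 negative. The largest called changes were those of Me1, malic enzyme (-1.16; EtOH -0.77), Srxn1, sulfiredoxin (-0.55; EtOH -0.23) and Txnrd1, thioredoxin reductase (-0.29; EtOH -0.10). Srxn1 is a bound gene that averaged 175 after OHT and 978 in EtOH at Day 2, and its interaction was not called.

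Cell division genes changed by small amounts, with medians of 0.07 for DNA replication genes and -0.12 for mitotic genes. DNA replication genes were higher in 19 and lower in 6 of 43 cases after OHT, and higher in 30 in EtOH, with 17 negative interactions and 1 positive. Dut, a dUTPase and a bound gene, went from a Day 2 level already below EtOH to a lower one (log2 fold change -0.46 ± 0.06 (SE), adjusted p = 7.79e-14; EtOH means 7779 ± 307 at Day 2 and 8467 ± 344 at Day 4), while Ccne2, a G1 cyclin, and Gins3 of the replicative helicase rose (0.38 and 0.32). Mitotic genes were lower in 17 of 30 after OHT (56.7%, against 23.0% of all genes) and higher in 6, where 30.7% of all genes were higher. In EtOH 11 were lower and 3 higher. The interaction was negative for 8 of the 30 and positive for 2. Mki67, which encodes the proliferation antigen Ki-67, had 17418, 18409 and 19292 at Day 2 and 12359, 12375 and 13461 at Day 4 (log2 fold change -0.53 ± 0.04 (SE), adjusted p = 2.71e-30; EtOH -0.02). Kif23 had -0.37 (EtOH -0.31, interaction not called) and Ccnb1 -0.32 (EtOH -0.15). Targets of p53 were lower in 11 and higher in 4 of 26 after OHT (42.3% and 15.4%), and lower in 15 and higher in 4 in EtOH. Their median was -0.04 after OHT and -0.19 in EtOH, and 10 interactions were positive against 3 negative. Zmat3, an RNA-binding p53 target and 1 of the 3 with a negative interaction, had 1759, 1933 and 2219.8 at Day 2 and 802, 835 and 899 at Day 4 (log2 fold change -1.22 ± 0.08 (SE), adjusted p = 1.44e-50; EtOH -0.51). Cdkn1a, the cell cycle inhibitor p21, had -1.09 (EtOH -0.84) and the death receptor Tnfrsf10b -0.49 (EtOH -0.25). In the BCL2 family 4 of 13 were lower (30.8%, against 23.0% of all genes) and 2 higher, and in EtOH 6 were lower and 1 higher. The pro-death members Bok, Bcl2l11 and Bbc3 had -0.56, -0.47 and -0.45 after OHT and -0.34, -0.08 and -0.59 in EtOH.

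Pluripotency genes were mostly higher at Day 4. Of 9 core factors 7 were higher after OHT (77.8%, against 30.7% of all genes) and 1, Tdgf1, lower, and in EtOH 5 were higher and 2 lower. Sox2 had 13357, 13109 and 12494 at Day 2 and 17565, 17387 and 16339 at Day 4 (log2 fold change 0.40 ± 0.04 (SE), adjusted p = 2.36e-22; EtOH -0.06). Dppa2 had 0.37 and rose further in EtOH (0.61), and Lin28a had 0.36 (EtOH 0.27, interaction not called). Naive state factors were higher in 12 and lower in 2 of 18 (66.7% and 11.1%), and in EtOH 9 were higher and 5 lower. Nr0b1, the nuclear receptor DAX1, had the largest rise of them, with 1728, 1648 and 1583 at Day 2 and 3871, 3978 and 3864 at Day 4 (log2 fold change 1.24 ± 0.05 (SE), adjusted p = 3.75e-134; EtOH 0.41), and Gbx2 and Tbx3 had 0.81 and 0.77, rising in EtOH as well. Formative and primed state genes were higher in 7 of 12 (58.3%) and only Otx2 was lower (-0.68; EtOH -1.13), with Zic2 at 0.43 against -0.43 in EtOH. Of 24 germ layer genes 5 were high enough to test and 4 were lower, among them Tubb3, a tubulin of neurons (4572, 4480.0 and 4794 at Day 2 and 2820.2, 2709 and 2777 at Day 4; log2 fold change -0.73 ± 0.05 (SE), adjusted p = 6.16e-57; EtOH 0.03), Eomes (-0.61; EtOH -1.14) and Krt18 (-0.34; EtOH -0.26). Of 4 neuroectoderm markers, Tubb3 among them, 3 stayed under 1 TPM in all 6 libraries and were not tested. Their log2 fold changes were opposite in sign to that of Tubb3: Sox1 1.23 (SE 0.25), Pax6 0.81 (SE 0.34) and Neurog2 0.83 (SE 2.83). All 11 two-cell-like genes were below the minimum mean.

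**Figure D5:**
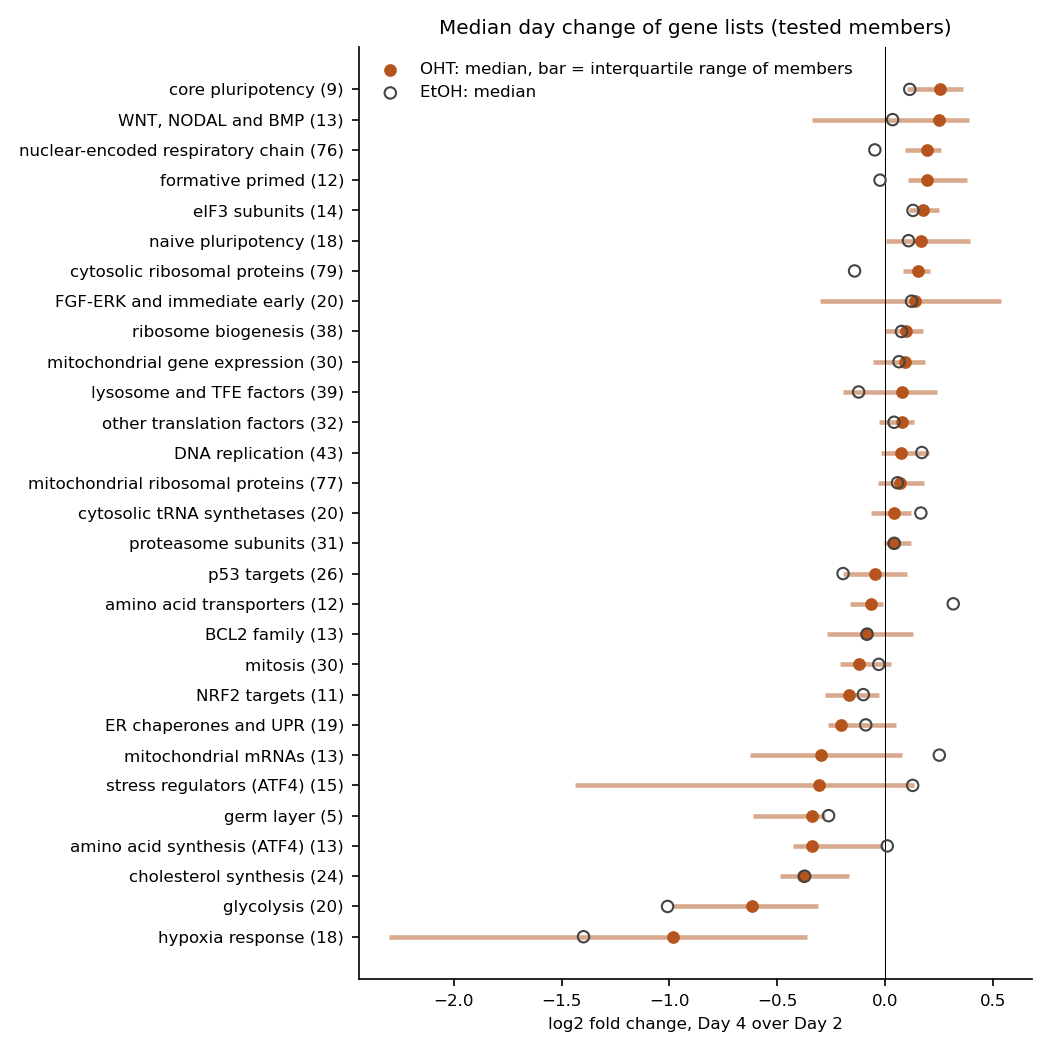
Median log2 fold change from Day 2 to Day 4 (horizontal axis) of the tested members of each gene list, after OHT (filled, with the interquartile range of the members as a bar) and in EtOH (open); the number tested is in brackets. Hypoxia and glycolysis genes have the most negative OHT medians, -0.98 and -0.62, and lie further left in EtOH; core pluripotency genes have the most positive, 0.26.

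The genes whose day change differed most from EtOH were ranked by the interaction among genes called in both tests. Selenow came first on the negative side (-3.77 ± 0.22 (SE), adjusted p = 3.08e-63), followed by Chac1, Gm37018, Nupr1, Uchl1 and Gm43788. On the positive side Uap1l1, a homologue of the enzyme that makes UDP-N-acetylglucosamine, had 669, 736 and 746 at Day 2 and 1194, 1316 and 1268 at Day 4 after OHT and fell in EtOH, with means of 429.5 ± 9.92 at Day 2 and 243 ± 20.9 at Day 4 (interaction 1.63 ± 0.12 (SE), adjusted p = 6.38e-42). Ephx2, soluble epoxide hydrolase, had 740.3, 719.9 and 735 at Day 2 and 1633, 1404 and 1409.8 at Day 4, a log2 fold change of 1.02 against -0.22 in EtOH. Id4, an inhibitor of basic helix-loop-helix factors, had 107, 109 and 83.9 at Day 2 and 233, 251 and 222 at Day 4, while the EtOH means were 98.9 ± 10.2 at Day 2 and 97.7 ± 8.36 at Day 4. Patl2, a protein linked to stored mRNA in oocytes, and Pcsk1, a prohormone convertase, rose by 0.65 and 0.85 on the log2 scale after OHT, with EtOH values of -0.93 and -0.40. Exosc6 of the RNA exosome had the largest value in this ranking, 7.86 ± 0.51 (SE), adjusted p = 2.05e-49, but it rests on a near absence of assigned reads at Day 4 in EtOH (358 ± 6.03 at Day 2 and 3.03 ± 5.26 at Day 4), where the posterior SD reached 21.2% of the mean count, so it is read as uncertain.

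Transcripts that the annotation holds as provisional (the class TEC) were mostly lower. Of 85 tested TEC genes 49 were lower and 11 higher at Day 4 after OHT (57.6% and 12.9%, against 23.0% and 30.7% of all genes). Their median log2 fold change was -0.59 against -0.04 in EtOH, and 19 were lower by over 2-fold, as were 1.50% of all genes. Without Day 2 replicate 3, which had the highest share of them, 41 of 81 were lower and 9 higher, with a median of -0.48. Gm37018 had 212, 235 and 257 at Day 2 and 54.3, 37.6 and 56.7 at Day 4 (EtOH 129 ± 26.1 at Day 2 and 112 ± 47.0 at Day 4) and Gm43788 had 162, 148 and 231 at Day 2 and 59.2, 53.4 and 68.8 at Day 4 (EtOH means 91.1 and 107), so that the group mean was highest in the Day 2 OHT and lowest in the Day 4 OHT libraries. The class took 0.143% to 0.155% of expected counts at Day 2 and 0.0888% to 0.0921% at Day 4 after OHT, and 0.101% to 0.124% and 0.0839% to 0.119% in EtOH. The libraries were made from ribosome-depleted total RNA, which keeps unspliced and non-polyadenylated RNA, and its part in the result was not tested. Small nuclear RNA genes were lower in 15 of 29 (51.7%) and higher in 1 (3.45%), and their EtOH median was lower still (-0.30 after OHT and -0.44 in EtOH). Long intergenic RNAs were higher in 33.1% and lower in 24.8% of 121, near the shares over all genes.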

How the data were processed

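RNA-seq was made by the study from rRNA-depleted, stranded total RNA of 12 libraries in 4 groups of 3. Per the labels and the study's methods, reads were aligned with STAR 2.6.0c to GRCm38.p6 and the authors quantified GENCODE vM18 genes with RSEM. The deposited expected counts (estimated read pairs per gene, not scaled) were rounded and tested, and the deposited TPM values (scaled by gene length to 1000000 per library by the authors) were used for marker levels. Library totals were 35017667 to 41409992 expected counts, replicates differed by more than sampling noise, and 54079 of 54146 genes had a symbol. The authors' tables of their own fold changes and p-values, made with DESeq2 1.22.2, were not used.

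Day 4 and Day 2 OHT libraries were compared with DESeq2 1.42.0 (R 4.3.3; Wald test, 2-sided, adjusted p below 0.05, mean normalised count above 100), the EtOH days in the same way, and the difference by the interaction of treatment and day over 12 libraries. Fold changes come from each fit's own size factors, and printed normalised counts from those of 12 libraries. Steps were tested on simulated counts. edgeR 4.0.16 and other scalings, filters and left-out libraries were alternatives.

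Named were Prdm10 and the 6 genes the study singled out, the 12 highest and 12 lowest log2 fold changes among called genes without overlap and with an RSEM posterior SD of at most 10% of the mean count, up to 3 called genes per list by size of change, and 6 genes per direction by interaction. Further genes are said to be chosen after their values were seen, or come from sequence windows. Members and lists were chosen with earlier results of these data known. Bound genes were the study's list (633, of which 627 matched by Ensembl gene identifier without its version). Promoter windows of 300 bases are RefSeq's (GRCm38.p6), and probes come from the study's oligo table.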

Additional observations from a re-analysis of the deposited data

Results flagged for a closer look

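The day change after OHT and the day change in EtOH differed by the DESeq2 interaction test for 2175 genes in the positive and 1577 in the negative direction, and for the named genes below. Each value is the difference of the 2 log2 fold changes, OHT minus EtOH, and no cause was tested. Genes lower at Day 4 after OHT and higher in EtOH were Selenow (-3.77), Chac1 (-2.20), Nupr1 (-1.87), Herpud1 (-1.01), Slc1a4 (-1.01), Polr1a (-0.59), Dut (-0.58), Iars (-0.58), Eif3b (-0.52) and Slc38a2 (-0.47). Lower after OHT with no call in EtOH were Gm37018 (-2.04), Uchl1 (-1.85), mt-Atp6 (-1.28), Flcn (-0.85), Tubb3 (-0.77), Eef1d (-0.66), Psat1 (-0.58), Mki67 (-0.51), Bcl2l11 (-0.40), Pabpc1 (-0.38), Mitf (-0.35), Ube2a (-0.30), Slc1a5 (-0.28), Sars (-0.18) and Psma7 (-0.12). Lower under both treatments, with a difference in size, were Vldlr (-1.24), Pfkp (-0.75), Zmat3 (-0.71), mt-Nd2 (-0.69), Dhcr7 (-0.53), Pycr1 (-0.46), Me1 (-0.39), Ddit4 (-0.37), Eif1 (-0.33), Egln3 (-0.33), Ier3 (-0.31), Lefty1 (-0.24), Txnrd1 (-0.20), Fdps (-0.20), Ccnb1 (-0.17), Rpl19 (-0.14), Slc16a3 (0.29), Aldoc (0.29), Otx2 (0.45) and Eomes (0.53). Genes higher after OHT and lower in EtOH were Rps12 (0.45), Zic2 (0.86), Hexa (0.91), Ephx2 (1.23), Uap1l1 (1.63) and Exosc6 (7.86). Higher after OHT with no call in EtOH were Psmb6 (0.12), Psmb5 (0.15), Mrpl43 (0.32), Vars (0.34), Cox5b (0.35), Rps23 (0.40), Cox8a (0.44), Ndufa1 (0.45), Sox2 (0.46), Rplp2 (0.48) and Pcsk1 (1.24). Higher under both treatments, with a difference in size, were Gbx2 (-0.34), 2210409E12Rik (-0.32), Dppa2 (-0.24), Mrps15 (0.22), Trmt10c (0.24), Tsr1 (0.25), Mrps34 (0.28), Eif3f (0.31), Amotl2 (0.44), Ccn2 (0.59), Sntb1 (0.69), Gm13140 (0.71), Nr0b1 (0.83), Wls (0.95) and Gm48377 (1.11). The remaining differences were Prdm10 (-0.23), Tchh (0.93), 2310043M15Rik (1.21), Platr15 (0.74), Id4 (1.25), Patl2 (1.58) and Gm43788 (-1.80), which had no call after OHT or were not tested in EtOH. The groups hold 3 libraries each, too few for a test for outlying samples.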

How the results depend on the processing

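Of the alternatives run, a single one moved a count of calls by over 1.5 times: with no minimum mean, 263 genes were over 2-fold higher and 891 over 2-fold lower, against 84 and 174. The construction of that alternative tests many low genes. Direction held for every count and named gene under the alternatives run. Of the list medians, 104 values under an alternative moved by more than the spread between replicates and 330 did not, and the proteasome median alone changed sign. The largest move was 0.11, for the ATF4-linked stress regulators without Day 4 OHT replicate 1, and 20 lists moved with the length trend removed, where the DNA replication median was 0.03 against 0.07. Leaving out 1 library at a time gave 3078 to 3291 genes higher and 2264 to 2435 lower, 78 to 99 over 2-fold higher and 143 to 206 over 2-fold lower, 110 to 116 bound genes lower and 92 to 98 higher, 3632 to 4146 called in EtOH, and 1699 to 2134 more positive and 1289 to 1475 more negative interactions. The edgeR quasi-likelihood test called 4030 higher and 3351 lower. Scaling by total counts gave 3115 higher and 3042 lower, so that 50.6% of calls were higher against 57.2%. Replicate numbers did not pair the samples: deviations of same-numbered OHT libraries correlated at -0.43, 0.013 and -0.14, and not every sample correlated best with its own number. With the replicate block 2875 genes were higher and 2112 lower, 88 and 176 past 2-fold, 109 bound genes lower and 82 higher, and 1918 more positive and 1411 more negative interactions. The log2 fold change of Prdm10 was called lower by edgeR (adjusted p = 0.0235), with effective lengths (0.049) and with total counts (0.0316). Of the named genes Syvn1, mt-Co3, mt-Atp6, Mterf1b, Slc1a4, Srxn1 and Krt18 lost their call under at least 1 alternative, and Sox21, Aoc3, Fos, Vldlr and Chac1 did so because their mean fell under 100. The proteasome median was -0.01 with the length trend removed. Values without Day 2 OHT replicate 3 were added after seeing the data. Depth limits genes below the mean of 100, which were not tested.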
